A study of Mus musculus with 6 samples.

Results

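Respiratory complex I, the NADH dehydrogenase of the mitochondrial inner membrane, was followed through its nuclear genes in mouse embryonic stem cells, comparing cells depleted of pyruvate kinase M with control cells. The genes were those whose symbol begins with Nduf followed by a, b, c, s or v, and 40 of the 6532 genes measured had such a symbol. Of these 40, 35 encode subunits of the complex, 4 encode assembly factors of the Ndufaf group that are not kept in the finished enzyme, and Ndufa4 encodes a protein now assigned to cytochrome c oxidase. The symbol alone set the membership. Genes missing from the measured set, such as Ndufs5, Ndufb1 and Ndufaf5 to Ndufaf8, were not analysed here.

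The cells were wild-type E14, an established mouse embryonic stem cell line grown with serum and LIF. They were transfected at 20 nM for 36 h with an siRNA pool against PKM1 and PKM2 (siPKM) or with a non-targeting pool (siCtrl), and were passaged 16 h before harvest. Each group gave 1 RNA library, made from total RNA after removal of rRNA, and 1 footprint library. Footprints, or ribosome-protected fragments (RPF), are the stretches of messenger RNA that a ribosome shields from RNases A and T1. Cycloheximide, which freezes elongating ribosomes, was given at 100 µg/ml for 2 min. A separate E14 line carrying FLAG-HA-tagged PKM2 gave 2 FAST-iCLIP replicates after UV crosslinking at 0.35 J per cm2. A crosslinked base tends to halt reverse transcriptase, so a count of such stops on a transcript reads its contact with the tagged protein, background included.

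Complex I takes electrons from NADH, passes them along a chain of iron-sulfur clusters to ubiquinone and uses the energy released to pump protons. It is L-shaped. The peripheral arm reaches into the matrix and holds the redox centres, while the membrane arm holds the proton channels, whose core subunits are encoded in mitochondrial DNA. The nuclear genome supplies the core of the peripheral arm and all accessory subunits, which surround the core and stabilise it. PKM makes pyruvate, the main carbon fuel that glycolysis hands to mitochondria, in the last step of glycolysis.

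Coding reads, counted without the first 15 and last 5 codons, totalled 10349212 in siPKM RNA, 12111993 in siCtrl RNA, 12545485 in siPKM RPF and 15175242 in siCtrl RPF. The targeted gene, Pkm2 in the files, stood at 1582 CPM (coding counts scaled to a common library total) in siPKM RNA, against 5024 CPM in siCtrl RNA, and at 1683 CPM in siPKM RPF, against 5311 CPM in siCtrl RPF. Of 8 pluripotency markers 7 were measured, with Pou5f1 at 1242 CPM in siPKM RNA and 1232 CPM in siCtrl RNA, and with a sum over the list of 3946 and 4024 CPM. Others of the 7 differed in RNA, with Esrrb at 233 CPM in siPKM against 154.5 CPM in siCtrl, Klf4 at 70.7 against 55.2 CPM and Zfp42 at 891 against 1052 CPM. Of markers of other cells, 3 of 8 trophoblast genes summed to 83.6 CPM in siPKM RNA and 77.5 CPM in siCtrl RNA. Krt8 and Krt18 were higher in siPKM, at log2 ratios of 0.59 and 0.37, and Tcfap2c lower, at -0.60. In the same order of groups, 2 of 6 primitive endoderm genes summed to 365 and 206 CPM. Their log2 ratios were 0.82 for Lama1 and 0.07 for Cubn. The sums were 125 and 177 CPM for 3 of 4 neural genes, and 304.5 and 229 CPM for 1 of 5 fibroblast genes. In bulk RNA, fewer cells of a type and less RNA per cell cannot be told apart, and the part of these markers in the results was not tested. With 1 library a group there is no replicate error and no test. Intervals given below are 95% intervals from the read counts alone, and a change is described by its size in these libraries.

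On some messages, including some for mitochondrial proteins, ribosomes start inside a YY1-type element known as TISU. Its start codon lies close to the 5' end. Promoter sequence from RefSeq (GRCm38.p6, 250 bases before to 50 after each annotated start) was available for 36 of the 40 genes, and the exact letters AAGATGGCG were searched there on both strands. They occurred in 5 of the 36, which is 13.9%, against 5.01% of 5285 measured genes with a promoter and 1.64% of 27025 promoters of all genes. In all 5 the element lay on the gene's own strand, between 22 and 35 bases after the annotated start, as it did, on that strand and after the start, in 152 of the 265 measured genes with the element. The 5 windows are shown because the element holds an ATG and can bear on where ribosomes begin. Capitals mark the element, and each sequence runs 5' to 3' on the strand of its gene.
Ndufs7: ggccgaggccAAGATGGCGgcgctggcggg
Ndufa9: attgtgggagAAGATGGCGgccgccgtccg
Ndufs4: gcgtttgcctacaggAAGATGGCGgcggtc
Ndufs6: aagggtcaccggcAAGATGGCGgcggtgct
Ndufc1: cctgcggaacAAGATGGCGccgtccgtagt
The window of Ndufs7 is chr10:80249463-80249492 on the plus strand. The others are on minus strands, at chr6:126849096-126849125 for Ndufa9, chr13:114388045-114388074 for Ndufs4, chr13:73328433-73328462 for Ndufs6 and chr3:51408914-51408943 for Ndufc1. The NRF-1 motif GCGCATGCG, which reads almost alike on both strands so that its matches can overlap, was found in 3 of the 36 promoters, or 8.33%, against 5.43% of measured genes. The GABP motif ACCGGAAG was found in 4, or 11.1%, against 6.96%, and the estrogen-related receptor motif TCAAGGTCA in 0, against 0.208%. A match describes the letters only.

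Messenger RNA of the complex was close to the median gene in the siPKM cells. The median log2 ratio of siPKM over siCtrl RNA over the 40 genes was -0.04 relative to the median of all genes, and it was 0.01 when ratios were scaled to library totals without that centring, which moves all genes by 0.05. Ratios ran from -0.71 to 0.31. Past 1.5-fold, 0 of the 40 were higher in siPKM, against 2.88% of all genes, and 1 was lower, against 1.24%. Past 1.2-fold, 1 was higher (Ndufb9), against 17.0% of all genes, and 3 were lower (Ndufaf3, Ndufa11 and Ndufab1), against 12.8%. The other 36 stayed within 1.2-fold.

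**Figure D1:**
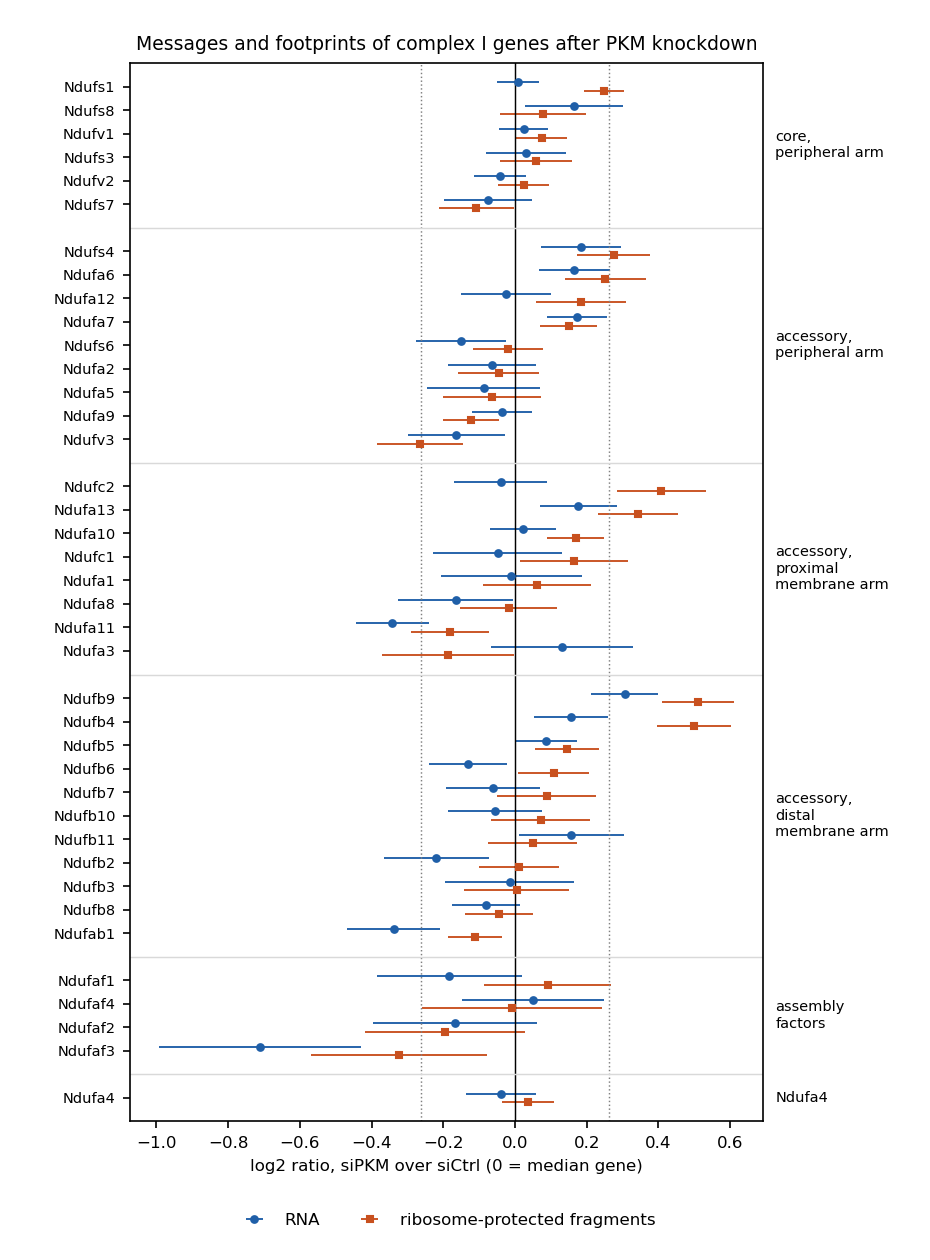
Log2 ratio of siPKM over siCtrl for RNA (blue circles) and ribosome-protected fragments (orange squares) of 39 of the 40 genes, grouped by place in the complex, with lines for 95% counting intervals, 0 at the median of all genes and dotted lines at 1.2-fold. Most RNA points lie between the dotted lines, with Ndufaf3 lowest at -0.71 and Ndufb9 highest at 0.31, and the footprint points of Ndufb9, Ndufb4 and Ndufc2 stand to the right.

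Ribosome footprints leaned higher in siPKM. Their median log2 ratio was 0.06, with 26 of the 40 genes above the median of all genes, where 15 had been above it in RNA. Without centring, 29 were above 0 in footprints and 23 in RNA. Past 1.5-fold, 0 of the 40 were higher, against 2.66% of all genes, and 0 were lower, against 1.53%. Past 1.2-fold, 5 were higher in siPKM footprints, namely Ndufb9, Ndufb4, Ndufc2, Ndufa13 and Ndufs4, against 14.7% of all genes. Lower past 1.2-fold were 2, Ndufaf3 and Ndufv3, against 13.1%. The 40 genes together took 0.476% of coding footprints in siPKM, against 0.441% in siCtrl, and 0.502% of coding RNA reads in siPKM, against 0.488% in siCtrl.

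Translation efficiency (TE), the footprint ratio relative to the RNA ratio, was above that of the median gene for 31 of the 40 genes, or 77.5%, where 50% of all genes lie by definition. The shift was small, with a median log2 TE ratio of 0.09 and a range of -0.32 to 0.45. Past 1.5-fold there were 0 higher, against 0.184% of all genes, and 0 lower, against 0.827%. Past 1.2-fold, 4 were higher (Ndufc2, Ndufaf3, Ndufb4 and Ndufaf1), which is 10.0% of the 40 against 7.23% of all genes, and 1 was lower (Ndufa3), which is 2.50% against 10.3%. The counting interval lay above 0 for 14 genes, or 35.0%, against 14.1% of all genes, below 0 for Ndufa3, or 2.50%, against 14.7%, and across 0 for 25. Without the assembly factors and Ndufa4, 28 of 35 subunits were above the median gene, with the same median of 0.09.

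**Figure D2:**
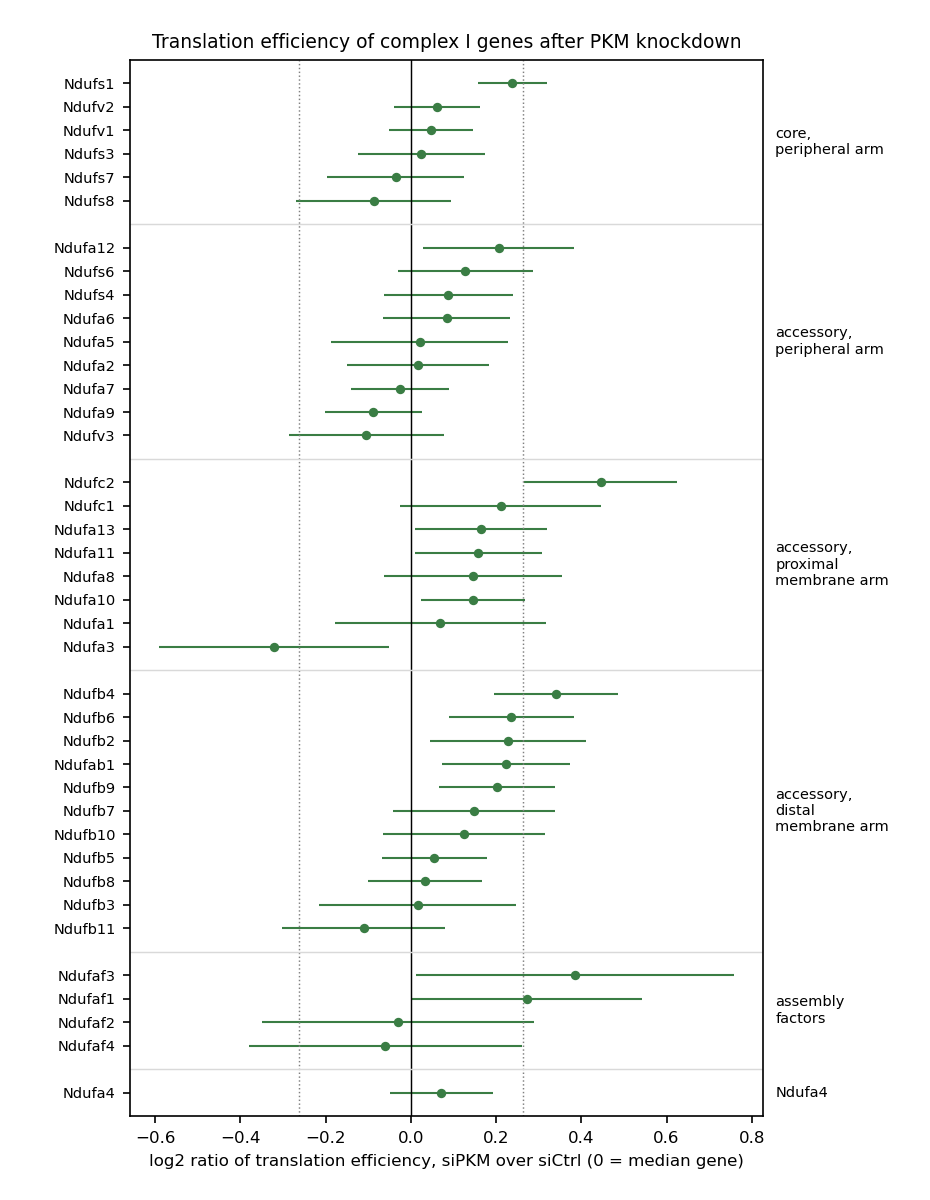
Log2 ratio of translation efficiency, siPKM over siCtrl, for 39 of the 40 genes, grouped as in the plot of RNA and footprints, with 95% counting intervals, 0 at the median gene and dotted lines at 1.2-fold. Membrane-arm genes lie mostly to the right of 0 (7 of 8 proximal and 10 of 11 distal), Ndufc2 stands highest at 0.45 and Ndufa3 lowest at -0.32.

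The core of the peripheral arm, which carries the flavin and the iron-sulfur clusters, stayed close to the median gene. All 7 core genes were within 1.2-fold in RNA, in footprints and in TE, with median log2 ratios of 0.01, 0.07 and 0.05. Ndufs1, the largest subunit of the complex and a carrier of several clusters, differed most in TE. Its RNA was 419.9 CPM in siPKM and 404.5 CPM in siCtrl, while its footprints were 412 CPM in siPKM and 341 CPM in siCtrl. RNA was thus nearly level and footprints were higher in siPKM, with a log2 TE ratio of 0.24 and an interval of 0.16 to 0.32.

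Ndufs7, which carries the last iron-sulfur cluster before ubiquinone, had 94.0 CPM in siPKM RNA against 95.9 CPM in siCtrl RNA, and footprints of 103.5 CPM in siPKM against 109.9 CPM in siCtrl. Its footprint log2 ratio was -0.11 (-0.21 to -0.0029), and its log2 TE ratio was -0.04 (-0.20 to 0.13).

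Ndufv1 binds NADH and the flavin, and Ndufv2 sits against it with another cluster. Ndufv1 had 313 CPM in siPKM RNA and 298 CPM in siCtrl RNA, with footprints of 238 and 222 CPM. Ndufv2 had 274 and 273 CPM in RNA, with footprints of 237 and 229.7 CPM. Their log2 TE ratios of 0.05 and 0.06 had intervals that crossed 0. Ndufs3, a core subunit without a cofactor, had 119 CPM in siPKM RNA against 113 CPM in siCtrl RNA, and 119 CPM in siPKM footprints against 113 CPM in siCtrl footprints. Ndufs8, which carries a pair of clusters next to the ubiquinone pocket, had 82.5 CPM in siPKM RNA against 71.3 CPM in siCtrl RNA, and 83.8 CPM in siPKM footprints against 78.15 CPM in siCtrl footprints. The log2 TE ratios of Ndufs3 and Ndufs8 were 0.02 and -0.09, again with intervals across 0.

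The 9 accessory subunits of the peripheral arm had median log2 ratios of -0.04 in RNA, -0.02 in footprints and 0.02 in TE. Ndufs4, which holds the peripheral arm together and whose loss in mice causes a fatal encephalopathy, was higher in both layers. It had 123.5 CPM in siPKM RNA against 105 CPM in siCtrl RNA, and 124 CPM in siPKM footprints against 101 CPM in siCtrl footprints. Its log2 ratios were 0.18 in RNA (0.07 to 0.30) and 0.28 in footprints (0.17 to 0.38). Ndufv3, an accessory subunit beside the NADH-binding site, was lower in both layers, with 75.1 CPM in siPKM RNA against 81.4 CPM in siCtrl RNA and 74.1 CPM in siPKM footprints against 87.8 CPM in siCtrl footprints. Its footprint log2 ratio was -0.27 (-0.39 to -0.14) and its log2 TE ratio -0.10 (-0.29 to 0.08). In TE, the 9 ranged from Ndufv3 to Ndufa12 at 0.21, and 6 of them were above 0.

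In the proximal part of the membrane arm, near the joint with the peripheral arm, 7 of 8 accessory subunits were above the median gene in TE, with a median of 0.15. Ndufc2 had the highest TE ratio of all 40 genes. Its RNA was 85.0 CPM in siPKM and 84.6 CPM in siCtrl, and its footprints were 86.0 CPM in siPKM and 63.85 CPM in siCtrl. RNA was level while footprints were higher in siPKM, with log2 ratios of -0.04 (-0.17 to 0.09) in RNA, 0.41 (0.28 to 0.53) in footprints and 0.45 (0.26 to 0.63) in TE. Its neighbour Ndufc1 lay at 0.21 in TE, with an interval of -0.02 to 0.45.

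Ndufa13, also known as GRIM-19, was higher in RNA and in footprints, with 134 CPM in siPKM RNA against 114.5 CPM in siCtrl RNA and 104 CPM in siPKM footprints against 80.9 CPM in siCtrl footprints. Its log2 ratios were 0.18 in RNA and 0.34 in footprints. Ndufa11, a membrane subunit near the joint, was lower in both, with 126 CPM in siPKM RNA against 154.5 CPM in siCtrl RNA and 94.7 CPM in siPKM footprints against 106 CPM in siCtrl footprints. Its RNA log2 ratio was -0.34 (-0.44 to -0.24).

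Ndufa3 was the single member whose TE interval lay below 0. It had 38.9 CPM in siPKM RNA against 34.4 CPM in siCtrl RNA, and 32.4 CPM in siPKM footprints against 36.3 CPM in siCtrl footprints, a log2 TE ratio of -0.32 (-0.59 to -0.05). Its entry in the files held 0 reads in the 5' UTR and the first 15 codons in every library.

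In the distal part of the membrane arm 10 of 11 accessory subunits were above the median gene in TE, with a median of 0.15. Ndufb9 and Ndufb4 had the highest footprint ratios of the 40 genes. Ndufb9, a protein of the LYR family that docks the mitochondrial acyl carrier protein onto the arm, had 185 CPM in siPKM RNA against 145 CPM in siCtrl RNA and 141 CPM in siPKM footprints against 97.7 CPM in siCtrl footprints. Its log2 ratios were 0.31 (0.21 to 0.40) in RNA, 0.51 (0.41 to 0.61) in footprints and 0.20 (0.06 to 0.34) in TE. Ndufb4 had 144 CPM in siPKM RNA against 125 CPM in siCtrl RNA and 133 CPM in siPKM footprints against 92.65 CPM in siCtrl footprints, and its log2 TE ratio was 0.34 (0.19 to 0.48). Both genes were higher in both layers, and more so in footprints.

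Ndufab1, the mitochondrial acyl carrier protein, serves fatty acid synthesis as well as complex I. It had 78.0 CPM in siPKM RNA against 95.4 CPM in siCtrl RNA, and 199.6 CPM in siPKM footprints against 213 CPM in siCtrl footprints. RNA was lower in siPKM by 0.34 on the log2 scale and footprints by less, which gave a log2 TE ratio of 0.22 (0.07 to 0.37). Its docking partners Ndufb9 and Ndufa6 lay above 0 in RNA, at 0.31 and 0.17. The lowest distal subunit in TE was Ndufb11, with 72.5 CPM in siPKM RNA against 62.9 CPM in siCtrl RNA, 77.8 CPM in siPKM footprints against 74.1 CPM in siCtrl footprints and a log2 TE ratio of -0.11 (-0.30 to 0.08). RefSeq names a copy or pseudogene for 5 of the 40 genes, namely Ndufb4, Ndufab1, Ndufa11, Ndufa12 and Ndufs6, and how the authors counted reads shared with such copies is not given in the sources used here, so their values are uncertain.

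The assembly factors had few reads, and their intervals are wide. Ndufaf3 and Ndufaf4 act together on the ubiquinone-binding module early in assembly. Ndufaf3 had 155 reads (15.0 CPM) in siPKM RNA and 288 reads (23.8 CPM) in siCtrl RNA, and 221 reads (17.6 CPM) in siPKM footprints and 330.0 reads (21.8 CPM) in siCtrl footprints. It was lower in siPKM in both layers, by log2 ratios of -0.71 (-0.99 to -0.43) in RNA and -0.32 (-0.57 to -0.08) in footprints, the lowest of the 40 genes in each. Ndufaf4 had 37.8 CPM in siPKM RNA against 35.3 CPM in siCtrl RNA, and 18.5 CPM in siPKM footprints against 18.3 CPM in siCtrl footprints. The lower level was thus seen in Ndufaf3 and not in its partner. Ndufaf2, which holds the place of its relative Ndufa12 until late in assembly, had 26.6 CPM in siPKM RNA against 28.9 CPM in siCtrl RNA and 22.1 CPM in siPKM footprints against 24.9 CPM in siCtrl footprints. Its RNA and footprint log2 ratios were -0.17 and -0.19, both with intervals across 0. Ndufaf1, part of the machinery that builds the membrane arm, had a log2 TE ratio of 0.27 (0.00 to 0.54). Of 7 measured assembly factors with other names, 5 were above 0 in TE, from Ecsit at -0.30 (-0.50 to -0.11) to Tmem126b at 0.50 (0.15 to 0.84), and both of these work with Ndufaf1.

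TE also differs between messages within a library, and here the level is a ratio of footprints to RNA of the same gene, relative to the median gene of that library. The median log2 TE level of the 40 genes was 0.15 in siPKM and 0.07 in siCtrl, with 23 of 40 above the median gene in each. Ndufab1 stood apart at 1.53 in siPKM and 1.33 in siCtrl, or 2.52 times the median gene in siCtrl. The next in siCtrl were Ndufa4, at 0.72 in siPKM and 0.67 in siCtrl, and Ndufa1, a small membrane subunit, at 0.68 and 0.63. The lowest in siCtrl were Ndufaf4, at -0.85 in siPKM and -0.77 in siCtrl, Ndufa6, at -0.50 and -0.56, and Ndufb9, at -0.22 and -0.39. Coding lengths were not used here, so amounts of RNA or footprints are not ranked between genes. Because each library is centred on its own median gene, the difference of 2 levels departs slightly from the TE ratio.

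**Figure D3:**
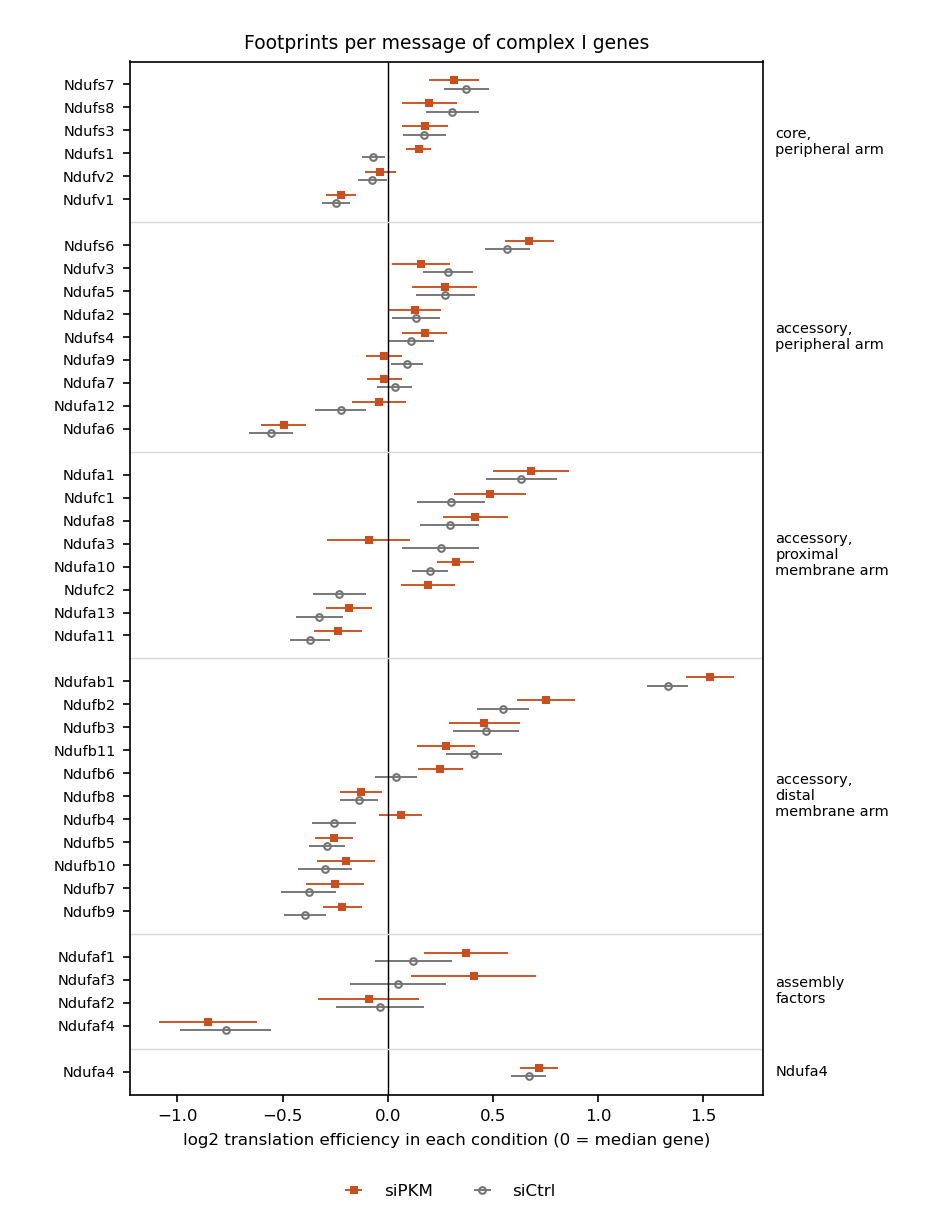
Log2 translation efficiency level of 39 of the 40 genes in the siPKM library and in the siCtrl library, relative to the median gene of each library, with 95% counting intervals. Ndufab1 lies far to the right at 1.53 in siPKM and 1.33 in siCtrl, and Ndufaf4 lies lowest at -0.85 and -0.77.

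Ndufa4 had 152.5 CPM in siPKM RNA against 152 CPM in siCtrl RNA, and 222 CPM in siPKM footprints against 213.5 CPM in siCtrl footprints. Ndufa1 had 37.5 CPM in siPKM RNA against 36.6 CPM in siCtrl RNA, and 53.25 CPM in siPKM footprints against 50.3 CPM in siCtrl footprints. Their ratios between the groups had intervals that crossed 0 in both layers. Ndufa6, like Ndufb9 an LYR protein that docks the acyl carrier protein, had 159 CPM in siPKM RNA against 137 CPM in siCtrl RNA, and 99.7 CPM in siPKM footprints against 82.5 CPM in siCtrl footprints.

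Footprints in the 5' UTR, where upstream translation can occur, were scarce on these messages. They made up 2.65% of all footprints on the 40 transcripts in siPKM and 2.54% in siCtrl, against 5.15% and 5.41% over all genes. RNA reads were fewer there too, at 3.58% in siPKM and 3.53% in siCtrl, against 4.22% and 4.43% over all genes. The entries of Ndufa3, Ndufa12, Ndufb4 and Ndufb8 held 0 RNA reads and 0 footprints there in both groups. Upstream translation could not be judged on those entries. A small set of genes held most of the 5' UTR footprints. Ndufc2, Ndufa4 and Ndufs1 had 347, 517 and 292 of the 1908 in siPKM, and 406, 543 and 271 of the 2069 in siCtrl. Without those genes the share was 1.25% in siPKM and 1.23% in siCtrl, and that of RNA reads 2.33% and 2.21%. By contrast the first 15 codons held 11.1% of the footprints in siPKM and 11.8% in siCtrl, against 6.77% and 6.90% over all genes. Short coding sequences raise that share by construction, and the same codons held 6.36% of these genes' RNA reads in siPKM and 6.47% in siCtrl, against 2.60% and 2.71% over all genes.

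**Figure D4:**
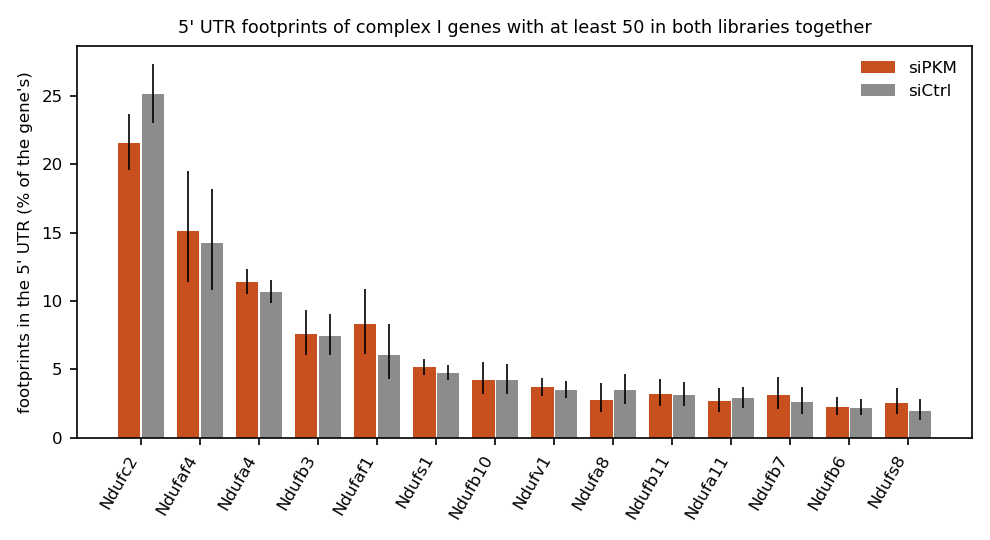
Share of each gene's footprints that lay in the 5' UTR, siPKM beside siCtrl, for the 14 genes with at least 50 such footprints in both libraries together, with exact 95% binomial intervals. Ndufc2 is highest, at 21.6% in siPKM and 25.1% in siCtrl, and most of the others are below 10%.

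Ndufc2, the gene with the highest TE ratio, was also the one with the largest 5' UTR share, at 21.6% in siPKM (exact binomial interval 19.6 to 23.7) and 25.1% in siCtrl (23.0 to 27.3). Its 5' UTR footprints were level between the groups, with a log2 ratio of 0.03 (-0.18 to 0.23), while its coding footprints differed by 0.41. That value leaves out the first 15 codons, where Ndufc2 had fewer footprints in siPKM, 108 against 165 in siCtrl. With all coding reads its log2 ratio was 0.32 in footprints and 0.39 in TE. On Ndufaf4 the share was 15.1% in siPKM and 14.2% in siCtrl, and on Ndufa4 it was 11.4% and 10.7%. The messages with the YY1-type element shown above had few, as did other members. In siPKM there were 3 5' UTR footprints on Ndufs7, 2 on Ndufa9, 10 on Ndufs4, 4 on Ndufs6 and 3 on Ndufc1, against 6, 4, 18, 7 and 1 in siCtrl. Their 5' UTR RNA reads, in the same order, were 13, 0, 33, 15 and 14 in siPKM. In siCtrl they were 8, 3, 24, 14 and 15. Genes outside these 5 had as few footprints there, such as Ndufa2 and Ndufb5, each with 1 in siPKM and 0 in siCtrl.

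The same 5 messages did not stand out in TE ratio between the groups. Their log2 TE ratios were -0.04 for Ndufs7, -0.09 for Ndufa9, 0.09 for Ndufs4, 0.13 for Ndufs6 and 0.21 for Ndufc1. All 5 had intervals across 0. The 31 other members with a promoter had a median of 0.07. Over all 265 measured genes whose promoter holds the element, the median was -0.01 and 45.7% were above 0. Ndufs6, a zinc-binding subunit added late in assembly, and Ndufa9, which lies at the joint of the arms, both carried the element. Their intervals of -0.03 to 0.29 and -0.20 to 0.03 do not set their TE ratios apart from that of the median gene. In TE level the 5 lay higher, with a log2 median of 0.30 in siCtrl and all 5 above the median gene. The 31 other members had a siCtrl median of 0.04, with 17 above the median gene, and the 265 genes one of -0.04. In siPKM the medians were 0.31, 0.16 and -0.01. The difference in level was not tested.

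Stops of PKM2 were fewer on complex I messages than their share of RNA. The 40 transcripts held 1483 stops in CLIP replicate 1 and 1401 in replicate 2, or 0.219% and 0.209% of all stops, against 0.414% of siCtrl RNA reads over whole transcripts. The median log2 of CLIP over RNA was -0.94, against 0.08 over all genes, and it was -1.08 in replicate 1 and -0.93 in replicate 2. Past 2-fold, 0 of the 40 were higher, against 27.5% of all genes, and 18 were lower, or 45.0%, against 19.5%. In both replicates alike 15 were lower past 2-fold, or 37.5%, against 16.0% of all genes. No control CLIP library was among the samples, so the background in these stops was not measured.

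**Figure D5:**
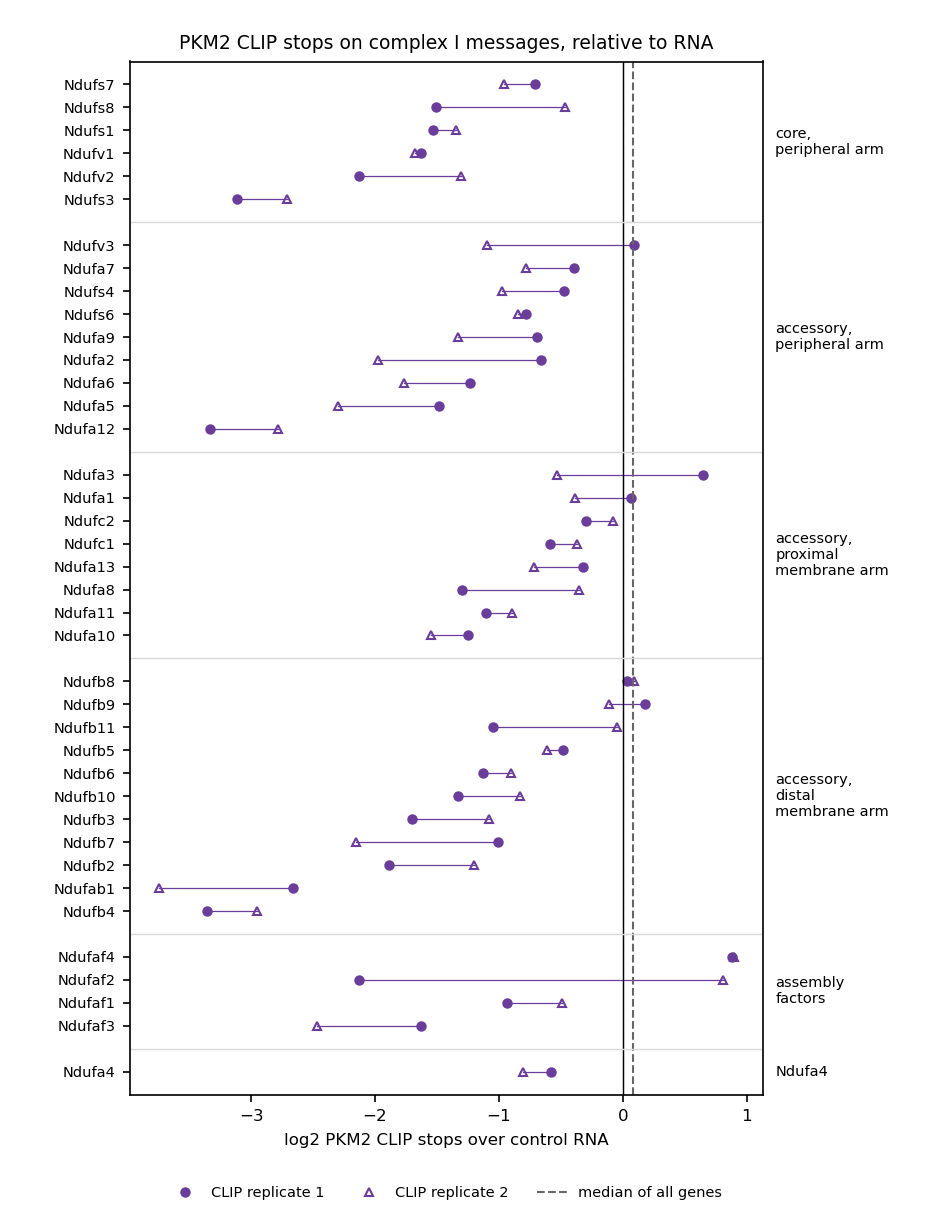
Log2 of PKM2 CLIP stops over siCtrl RNA for 39 of the 40 genes in replicate 1 (filled circles) and replicate 2 (open triangles), with a solid line at 0 and a dashed line at the median of all genes, 0.08. Most genes lie left of both lines, Ndufb4, Ndufab1 and Ndufa12 lowest near -3, and Ndufaf4 alone lies well to the right in both replicates.

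Ndufb4 had the lowest ratio, with 6 stops in replicate 1 and 8 in replicate 2 (10.4 ± 2.17 CPM, SD, n = 2) and a log2 CLIP over RNA of -3.14 ± 0.28. Ndufab1 had 7 and 3 stops (7.40 ± 4.14 CPM) and a ratio of -3.10 ± 0.77. Ndufa12 had 4 and 6 stops (7.43 ± 2.15 CPM) and a ratio of -3.03 ± 0.39. These are few stops, near the 3 counts, or 4.43 and 4.47 CPM, taken as the limit of detection, and all 3 genes are among the 5 with a named copy. The core subunit Ndufs3, which has none, was as low at -2.90, with 6 and 8 stops. Without the 5 genes the median over the other 35 was -0.83, with 15 of them lower past 2-fold, against 19.5% of all genes.

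Ndufaf4 was the exception. It had 75 stops in each replicate (111 ± 0.82 CPM, SD, n = 2) and a log2 CLIP over RNA of 0.89 ± 0.01, or 1.66 with coding RNA reads as the denominator. Ndufa3, with 28 and 12 stops, followed at 0.17 ± 0.83, and Ndufb8, a distal subunit, with 82 and 84 stops, at 0.06 ± 0.04. Only Ndufaf4 stood above the median of all genes by more than its spread between replicates. That spread comes from 2 equal counts and leaves out counting error. The message with the most stops was Ndufa4, with 105 and 89 (144 ± 15.7 CPM), though relative to its RNA it was at -0.69 ± 0.16. Ndufaf2 differed between the replicates, with 3 stops in replicate 1 and 26 in replicate 2.

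By place in the complex, the core of the peripheral arm was lowest in CLIP over RNA, with a median of -1.65. Of its 7 genes 5 were lower past 2-fold, or 71.4%, against 19.5% of all genes. The accessory subunits of the peripheral arm had a median of -0.98, with 4 of 9 lower. In the membrane arm the proximal part had a median of -0.49, with 1 of 8 lower, or 12.5%, which is below the share of all genes. The distal part had a median of -1.06, with 7 of 11 lower, or 63.6%. The genes with higher TE in siPKM were found across this range, with Ndufb4 at the bottom and Ndufc2, at -0.18 with 54 and 62 stops, near the top.

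Other mitochondrial messages were set beside these genes, without a test of the difference. The 40 measured genes of complexes II to V had a median log2 TE ratio of 0.08, with 29 above 0, beside the 0.09 and 31 of complex I, and medians of -0.09 in RNA and 0.03 in footprints. By complex, TE medians were -0.03 in complex II (1 of 4 genes above 0), 0.18 in complex III (8 of 9), 0.02 in complex IV (6 of 11) and 0.08 in complex V (14 of 16). The TE ratios ran from -0.09 for Sdhd to 0.11 for Sdha in complex II and from -0.19 for Cyc1 to 0.52 for Uqcr10 in complex III. They ran from -0.18 for Cox6a1 to 0.31 for Cox7c in complex IV and from -0.19 for Atp5d to 0.42 for Atp5k in complex V. The 72 mitochondrial ribosomal proteins had a TE median of 0.07, from Mrpl10 at -0.52 to Mrps23 at 0.49. Their medians were -0.14 in RNA and -0.09 in footprints, where 24 of 72 were above 0. CLIP over RNA was low in these groups too, at -1.41 in complexes II to V and at -0.99 in the mitochondrial ribosomal proteins. In complexes II to V 26 of 40 genes were lower past 2-fold, or 65.0%, against 19.5% of all genes.

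Coding lengths were not measured, and the share of coding RNA reads in the first 15 codons stood in for them, without a test. It had a median of 7.89% in the 40 genes, against 2.56% over all genes. The 571 measured genes with at least 8% there had a median log2 TE ratio of 0.09, with 68.8% above 0, and a median CLIP over RNA of -0.69. The 1389 genes with at least 5% there had a TE median of 0.07, with 64.0% above 0, and a CLIP over RNA of -0.46. These lists overlap with each other and with the 40 genes. In the core subunits the share was 2.83%, beside medians of 0.05 in TE and -1.65 in CLIP over RNA.

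The mitochondrially encoded part of the complex was represented by 1 of 7 genes. The entry named mt-Nd4, which the files describe as chain 4L so that its identity is uncertain, had 192 CPM in siPKM RNA against 129 CPM in siCtrl RNA, and 114 CPM in siPKM footprints against 149 CPM in siCtrl footprints. In these coding reads RNA was higher and footprints were lower in siPKM. The log2 TE ratio was -0.93 (-1.07 to -0.80), opposite in direction to the median of the nuclear genes. Most of the entry's footprints lay in the region counted as 3' UTR and are not in that ratio. That region held 5455 of 6987 footprints in siPKM and 6538 of 8980 in siCtrl. Mitochondrial ribosomes are not held by cycloheximide. The entry had 0 stops in both CLIP replicates.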

How the data were processed

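The submitters' processing notes name cutadapt, Bowtie2 and the genome build mm9. Versions, counting rules, strand and treatment of reads with several matches are not given in the sources used here. The authors deposited 1 table of raw read counts per transcript region for the RNA and RPF libraries and of raw counts of reverse transcription stops for the CLIP replicates, per the file headers. They also deposited log2 values of the same quantities, including log2 TE, used here only as an alternative. All 6535 rows hold at least 151 coding reads in each RNA and RPF library, so genes that dropped below that level are not analysed. Of rows that share a symbol the one best covered in RNA was kept, which left 6532 genes.

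From the counts, log2 ratios of coding reads plus 0.5 were scaled by library sum and centred on the median of all genes (shifts of 0.05 in RNA and 0.02 in RPF). TE is the RPF ratio minus the RNA ratio. Intervals are normal on log counts and cover counting error only. CLIP over RNA is the log2 of the mean scaled stops of both replicates, 0.5 added, over the siCtrl RNA share of the whole transcript. The CLIP replicates differed beyond sampling noise (chi-square of 1.98 per gene over 6147 genes), and nothing says that they come from separate cultures. Thresholds were 1.5-fold, 1.2-fold and, for CLIP, 2-fold. Scaling factors for alternatives came from edgeR 4.0.16 and DESeq2 1.42.0 in R 4.3.3, the rest from Python 3.11.15 with pandas 2.3.3 and SciPy 1.17.1, and the ratios were tested on simulated data.

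The genes and lists were chosen with earlier results of these data known. The naming rule took all core subunits (1 of them is not reported here and not plotted), the 3 highest and 3 lowest genes in RNA, RPF and TE ratio, siCtrl TE level and CLIP over RNA, the gene with the most stops and both ends of each comparison list in TE. Its part on RNA level per length was not applied, since no coding lengths were used here.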

Additional observations from a re-analysis of the deposited data

How the results depend on the processing

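Of 100 recomputed medians and counts for the 40 genes, 94 stayed within a set tolerance. It was counting error for RNA, RPF and TE medians, spread between the replicate medians for CLIP medians, and 1.5 times for counts. Without centring, the RNA median was 0.0077, with 23 genes above 0. The CLIP over RNA median was between -1.08 and -0.93 without replicate 2 or replicate 1, -1.10 with coding RNA reads as the denominator (0.18 over all genes), and -0.83 without the 5 genes with a named copy, an alternative added after seeing the data, as was leaving out 6 genes that overlap another protein-coding gene. With at least 20 stops, 11 of 28 genes were lower past 2-fold, against 17.2% of all genes; fewer genes were tested there. Of 145 further values, 9 moved and 0 reversed a called direction. The 145 were for single genes, except the TE median of the 571 genes with a high share in the first 15 codons. That median was among the 9 that moved. The authors' deposited log2 TE gave a median of 0.07, with 29 of 40 above 0. Comparisons by protein length were not run. No paired analysis was possible because siPKM and siCtrl had 1 RNA and 1 RPF library each and no test was run. Ratios of genes with few reads, such as Ndufaf3, and of genes with few stops are limited by counting error.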
